A study of Mus musculus with 9 samples.

Results

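Sequence-specific RNA-binding proteins that set muscle splicing, 10 in all, were followed at the level of their RNA through differentiation of C2C12 cells: Rbm24, Rbm20, Celf1, Celf2, Mbnl1, Mbnl2, Mbnl3, Rbfox1, Rbfox2 and Ptbp1. They were chosen by name, with earlier results of these data known, and are 10 of the 47728 genes counted. All 10 passed the filter on low counts. C2C12 is a mouse myoblast line that leaves the cell cycle and forms myotubes by fusion once it is moved to horse serum with insulin, transferrin and selenium. Cells labelled Cry2 knockdown, Cry1 knockdown and control were collected at days 0, 3 and 5 of differentiation, with 1 polyA RNA library for each of the 9 combinations. All groups share the line and the media, and the agent of knockdown and what the control received are not given in the sources used here. Cry1 and Cry2 encode cryptochromes, the repressors of the circadian clock, and the title of the series names a role of Cry2 in myogenic differentiation.

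These proteins bind short RNA motifs near alternative exons and decide, from their position and amount, whether an exon is kept or skipped. In developing muscle the CELF proteins (founding member Celf1) and the muscleblind proteins (Mbnl1, Mbnl2, Mbnl3) oppose each other on many exons, RBFOX proteins promote muscle exons, Rbm20 governs titin exons, Rbm24 promotes muscle exon inclusion and stabilises muscle transcripts, and Ptbp1 represses tissue-specific exons in undifferentiated cells. The counts here are per gene. They measure how much of each regulator's RNA was present, and hold no measure of exon use.

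The libraries held 4731020 to 6412279 counts each. Levels are given as CPM, the count scaled to the TMM-adjusted library total. Where a library has 0 counts of a gene, up to 3 counts are allowed, or 0.44 to 0.635 CPM, as counting error only. Cry2 was lowest in the Cry2 knockdown at each of the 3 days, at 7.27, 8.26 and 16.6 CPM at days 0, 3 and 5, against 19.2, 39.7 and 48.9 CPM in control cells. Cry1 was lowest in the Cry1 knockdown, at 8.30, 6.65 and 8.12 CPM, against 20.5, 15.8 and 17.4 CPM in control cells. All 10 skeletal muscle markers had counts in every library, and their summed level was 2150 to 2838 CPM at day 0, 15576 to 20872 CPM at day 3 and 21094 to 23031 CPM at day 5. The 5 endothelial and blood markers summed to at most 2.41 CPM in any library. Of the 5 fibroblast markers, 2 or 3 were at 0 in each library and the 5 summed to 16.1 to 153.7 CPM. The 5 neuronal markers summed to 42.6 to 324.9 CPM, nearly all of it Tubb3, and Snap25 was at 0 in 8 of the 9 libraries. The 5 smooth muscle markers summed to 1341.7 to 3615 CPM. Adipocyte and osteoblast markers, 5 each, summed to at most 23.3 and 61.7 CPM. With no replicate culture, an edgeR quasi-likelihood p sets a genotype difference against the disagreement between days, and a day difference against the disagreement between genotypes. A difference of culture shared by the 3 days of a genotype cannot be told apart from the knockdown. In these bulk libraries fewer cells of a type and less RNA per cell cannot be told apart either.

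Between day 0 and day 3 the regulator set turned over at both ends. Rbm24 and Rbfox1, scarce at day 0, rose most, Rbm20 and Rbfox2 rose modestly, and Ptbp1 and Mbnl3 fell, while Celf1, Celf2, Mbnl1 and Mbnl2 did not pass the test. Of the 10 genes, 6 passed an adjusted p of 0.05 (4 higher and 2 lower at day 3). Of all 13094 genes tested 51.1% passed, 25.4% higher and 25.7% lower, so the share of the 10 that changed was near the background. The median log2 fold change, day 3 over day 0, was -0.07 for the 10 genes and 0.01 for all genes tested.

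**Figure D1:**
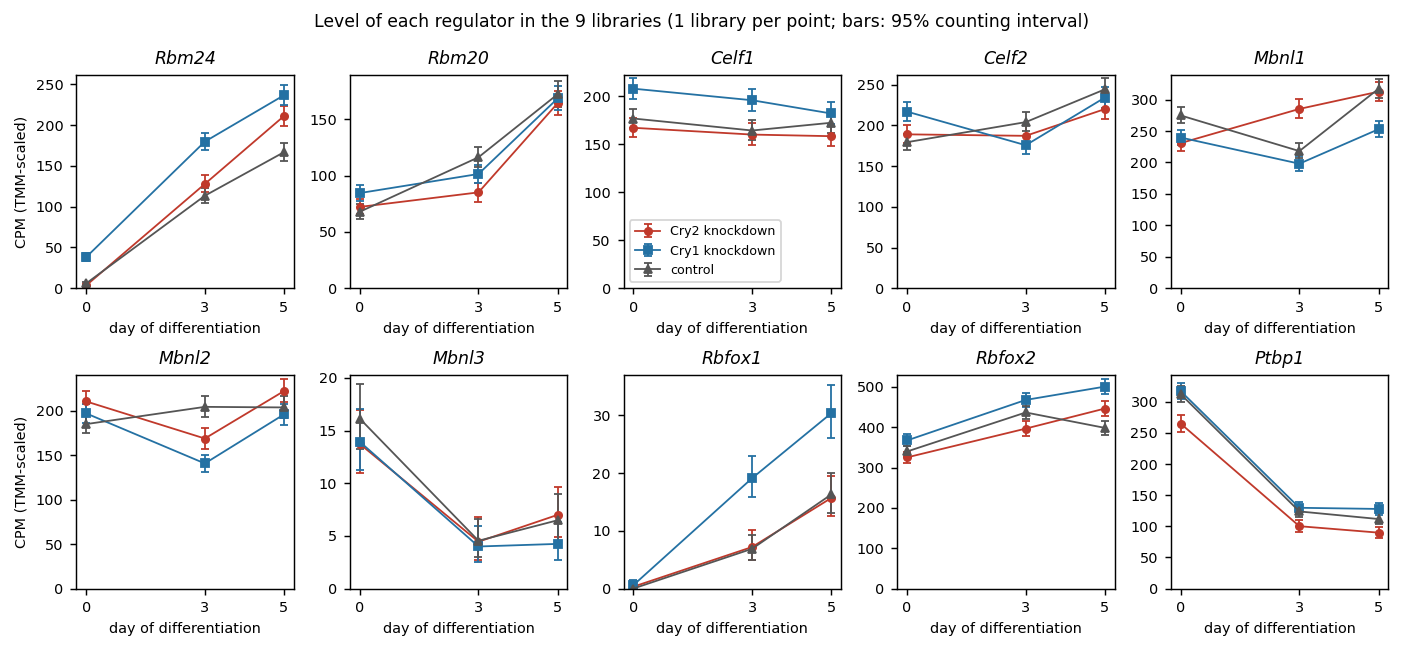
Level of each of the 10 regulators in CPM, scaled by TMM, against day of differentiation, with 1 point per library, its exact 95% Poisson interval as the bar, and a line for each of Cry2 knockdown, Cry1 knockdown and control. Rbm24 and Rbfox1 climb and Ptbp1 and Mbnl3 drop in all 3 genotypes after day 0, and the Cry1 knockdown lies above the other lines for Rbm24 and Rbfox1.

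Rbm24 (chr13:46418434-46431095 on mm10, as are the gene positions that follow), which promotes inclusion of muscle exons and binds the RNA of muscle regulators such as myogenin and p21, had 3.39, 128 and 211 CPM at days 0, 3 and 5 in the Cry2 knockdown. It had 38.1, 180 and 237 CPM in Cry1 knockdown cells, and 5.87, 113 and 167 CPM in control cells. Every day 3 library was above every day 0 library, and the 3 genotypes at day 0 were spread over a wider ratio than at any later day. The level averaged 140 ± 34.9 CPM at day 3 and 15.8 ± 19.4 CPM at day 0 (SD, n = 3 libraries each). The log2 fold change was 3.37 ± 0.47 (SE; edgeR adjusted p = 0.000395), and it was 4.72 without the Cry1 knockdown library of day 0. Day 5 over day 3 was 0.58 ± 0.39 (edgeR adjusted p = 0.303), and passed without that same library (adjusted p = 0.0172) and with the 6 libraries of those days alone (adjusted p = 0.00756).

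Rbfox1 (chr16:5885355-7411526), the muscle, heart and brain member of the RBFOX family, had 2, 34 and 83 counts at days 0, 3 and 5 in the Cry2 knockdown, or 0.32, 7.20 and 15.7 CPM. It had 4, 115 and 172 counts (0.59, 19.1 and 30.4 CPM) in the Cry1 knockdown, and 0, 41 and 88 counts (0, 6.89 and 16.3 CPM) in control cells. The day 0 libraries were at or near the floor, and all day 3 and day 5 libraries were above it. Summed over genotypes, 190 counts at day 3 against 6 at day 0 gave a ratio of 37.5 after scaling (95% counting interval 16.9 to 103). The edgeR test of day 3 against day 0 had an adjusted p of 1.04e-05. From day 3 onward Rbfox1 rose further, by a log2 fold change of 0.97 ± 0.21 for day 5 over day 3 (edgeR adjusted p = 0.0102), with higher values at day 5 in each of the 3 genotypes. That second call was lost without the Cry2 knockdown library of day 3 or the control library of day 5 (adjusted p up to 0.0564).

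Rbm20 (chr19:53677306-53867080), the regulator of titin and calcium-handling exons, had 72.2, 85.1 and 164 CPM at days 0, 3 and 5 in the Cry2 knockdown. It had 84.5, 101 and 168 CPM in Cry1 knockdown cells, and 67.9, 116 and 172 CPM in control cells. Over the 3 genotypes its larger step was the later one, and at day 5 the genotypes lay within 10 CPM of each other. Day 3 over day 0 was 0.43 ± 0.11 (edgeR adjusted p = 0.0111; 0.0565 without the control library of day 0), and day 5 over day 3 was 0.74 ± 0.11 (adjusted p = 0.00212). The same order of steps held in the Cry2 knockdown, with log2 changes of 0.95 for day 5 over day 3 and 0.24 for day 3 over day 0, and in the Cry1 knockdown, with 0.73 and 0.26. In the control the order was the other way, with 0.57 and 0.77.

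Rbfox2 (chr15:77078990-77307004), the broadly expressed RBFOX member, had 325, 396 and 446 CPM at days 0, 3 and 5 in the Cry2 knockdown. It had 367, 468 and 501 CPM in Cry1 knockdown cells, and 340, 436 and 398 CPM in control cells. Each day 3 library exceeded each day 0 library, and the day 3 over day 0 fold was 0.33 ± 0.08 on the log2 scale (edgeR adjusted p = 0.00882). Day 5 did not differ from day 3 by the test (0.05 ± 0.08, adjusted p = 0.712). Rbfox2 remained the main RBFOX RNA throughout. Per kilobase of exon Rbfox1 made up 0.183%, 3.25% and 6.11% of Rbfox1 and Rbfox2 together at days 0, 3 and 5 in the Cry2 knockdown. That share was 0.298%, 7.03% and 10.1% in Cry1 knockdown cells, against 0%, 2.84% and 7.04% in control cells.

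Ptbp1 (chr10:79854427-79864771), the polypyrimidine tract-binding repressor of tissue-specific exons, had 265, 100 and 89.8 CPM at days 0, 3 and 5 in the Cry2 knockdown. It had 317, 130 and 128 CPM in Cry1 knockdown cells, and 312, 124 and 112 CPM in control cells. All 6 libraries of days 3 and 5 were below all 3 of day 0, and the Cry2 knockdown was the lowest of the genotypes at each day. Day 3 over day 0 was -1.34 ± 0.08 (edgeR adjusted p = 2.24e-06), and day 5 over day 3 was -0.11 ± 0.08 (adjusted p = 0.325). Its paralogs shared the family total with it: per kilobase, Ptbp1 was 64.0% of the summed Ptbp1, Ptbp2 and Ptbp3 level in the control at day 0, 49.3% at day 3 and 50.4% at day 5. Of the exon bases of Ptbp1, 20.7% overlap genes on the other strand, and the kit named in the labels does not mark strand. Of its 50-base words 18.3% recur in other genes, these and the gene models Gm18815 and Gm4900. The overlapping coding gene Plppr3 had 13.5 to 46.6 CPM, and was higher at day 3 than at day 0 in every genotype, opposite to Ptbp1.

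Mbnl3 (chrX:51117269-51206532), the muscleblind member known as an inhibitor of muscle differentiation, had 13.7, 4.45 and 6.99 CPM at days 0, 3 and 5 in the Cry2 knockdown. It had 13.9, 3.99 and 4.24 CPM in Cry1 knockdown cells, and 16.1, 4.54 and 6.48 CPM in control cells. No later library reached the lowest day 0 library. Day 3 over day 0 was -1.75 ± 0.19 (edgeR adjusted p = 9.61e-05), from 72 counts in all at day 3 and 289 at day 0, and day 5 over day 3 did not pass (0.44 ± 0.21, adjusted p = 0.162).

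Mbnl1 (chr3:60472830-60629750) and Mbnl2 (chr14:120275669-120431697), the main muscleblind proteins of muscle, whose loss of function is central to myotonic dystrophy, passed at neither step in the fit of all 9 libraries. Mbnl1 had 231, 285 and 313 CPM at days 0, 3 and 5 in the Cry2 knockdown, 240, 198 and 253 CPM in Cry1 knockdown cells, and 275, 218 and 317 CPM in control cells. The Cry2 knockdown alone had more Mbnl1 at day 3 than at day 0. Over genotypes, Mbnl1 differed by -0.10 ± 0.12 for day 3 over day 0 (edgeR adjusted p = 0.509) and by 0.34 ± 0.12 for day 5 over day 3 (adjusted p = 0.0666). The later step passed without the Cry2 knockdown library of day 0 or of day 3 (adjusted p = 0.0279 and 0.0234), without the filter on low counts (adjusted p = 0.042) and with the 6 libraries of those days alone (adjusted p = 0.0494). Mbnl2 had 210, 169 and 222 CPM in Cry2 knockdown cells, 197, 141 and 196 CPM in Cry1 knockdown cells, and 185, 204 and 204 CPM in control cells. Both knockdowns were lowest at day 3, where the control was not. The Mbnl2 day 3 over day 0 fold was -0.21 ± 0.12 on the log2 scale (edgeR adjusted p = 0.151), and without the control library of day 3 it passed (adjusted p = 0.006). Its day 5 over day 3 fold was 0.28 ± 0.12 (edgeR adjusted p = 0.102), and passed without that library too (adjusted p = 0.00734). Per kilobase, Mbnl3 was 4.99% to 5.78% of the summed muscleblind level at day 0 and 1.60% to 2.22% at days 3 and 5.

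Celf1 (chr2:90940382-91019497) and Celf2 (chr2:6539694-7509563), which favour fetal splice patterns and, for Celf1, speed the decay of RNAs with GU-rich elements, did not pass for day 3 over day 0, and Celf2 passed for day 5 over day 3. Celf1 had 167, 160 and 159 CPM at days 0, 3 and 5 in the Cry2 knockdown, 208, 196 and 182 CPM in Cry1 knockdown cells, and 177, 164 and 173 CPM in control cells. Its genotypes did not change order, with the Cry1 knockdown highest and the Cry2 knockdown lowest at each day. Day 3 over day 0 was -0.08 ± 0.07 and day 5 over day 3 was -0.02 ± 0.07 (edgeR adjusted p = 0.345 and 0.88). Celf2 had 189, 187 and 220 CPM in Cry2 knockdown cells, 217, 176 and 234 CPM in Cry1 knockdown cells, and 179, 204 and 244 CPM in control cells. Day 5 libraries were all above day 3 libraries. Celf2 did not pass for day 3 over day 0 (-0.05 ± 0.10, edgeR adjusted p = 0.714) and rose by 0.30 ± 0.10 for day 5 over day 3 (adjusted p = 0.0461). That call was lost without any 1 of the 3 Cry2 knockdown libraries, the Cry1 knockdown libraries of day 3 and day 5 and the control library of day 5 (adjusted p up to 0.202). It was also lost without the filter on low counts (adjusted p = 0.0561) and in DESeq2 (adjusted p = 0.0809). Of its exon bases 7.58% overlap an opposite-strand lincRNA, Gm26565, which had 0 counts in every library.

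For day 5 over day 3, 3 of the 10 genes passed, all higher (Rbm20, Rbfox1 and Celf2), where 27.9% of all genes tested passed, 14.7% higher and 13.2% lower. The median log2 fold change was 0.32 for the 10 and 0.01 for all genes tested.

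**Figure D2:**
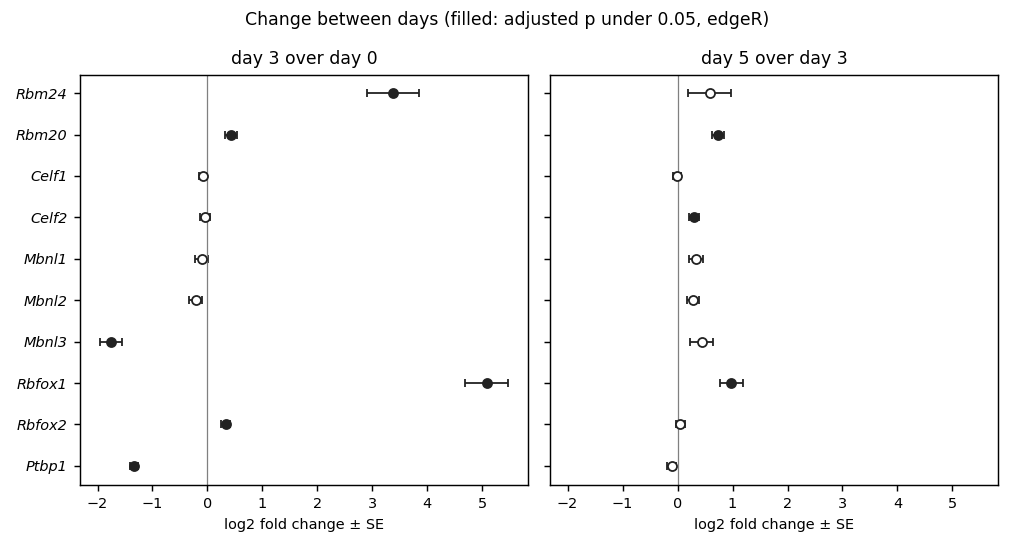
Log2 fold change with its standard error for the 10 regulators, day 3 over day 0 on the left and day 5 over day 3 on the right, filled where the edgeR adjusted p was under 0.05. The left panel has Rbfox1 and Rbm24 far to the right and Mbnl3 and Ptbp1 to the left (the day 0 libraries held 6 counts of Rbfox1 in all), and in the right panel the points lie between -0.11 and 0.97.

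Per kilobase of merged exons, which allows levels of different genes to be set side by side, the order of the regulators was rearranged. At day 0 Ptbp1 was the highest (62.9 ± 6.08 CPM per kilobase, SD over 3 libraries), followed by Rbfox2 (42.3 ± 2.62), Celf1 (21.8 ± 2.52), Mbnl2 (16.5 ± 1.06), Mbnl1 (13.3 ± 1.24), Rbm20 (11.02 ± 1.27), Celf2 (7.54 ± 0.753), Rbm24 (4.52 ± 5.55), Mbnl3 (1.67 ± 0.152) and Rbfox1 (0.0694 ± 0.0675). In that order Mbnl1 and Rbm20, Celf2 and Rbm24, and Rbm24 and Mbnl3 overlapped over the libraries. At day 3 Rbfox2 (53.3 ± 4.38) and Rbm24 (40.2 ± 9.99) led and overlapped, with Ptbp1 next (24.9 ± 3.30). At day 5 Rbm24 (58.7 ± 10.1) and Rbfox2 (55.1 ± 6.29) overlapped at the top, followed by Rbm20 (24.8 ± 0.586) and Ptbp1 (23.2 ± 4.03), which overlapped as well. Rbfox1 (4.72 ± 1.89) and Mbnl3 (0.675 ± 0.168) closed the order at day 5. Exons were merged over all annotated isoforms, so genes with many long alternative exons, such as Celf2 and Mbnl1, can have their level per kilobase understated.

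The start regions of the 4 genes with the largest day changes are shown. These genes were picked by day change, which ran the same way in the control and in both knockdowns. A part of E-boxes or of the cryptochromes in these changes was not tested. The start regions come from RefSeq on GRCm38.p6, from 250 bases before to 50 after the start, with 8 of the 10 genes and 14 windows matched (Rbm20 and Rbfox2 were not matched). Rbfox1 had 2 windows. The second, which holds matches, is shown, and the first (chr16:5884543-5884842), nearer to the gene start given above, held 0. The capitals mark matches to CANNTG, the E-box bound by MyoD family and clock proteins, which reads the same on both strands.
Rbm24 (chr13:46418050-46418349, plus strand): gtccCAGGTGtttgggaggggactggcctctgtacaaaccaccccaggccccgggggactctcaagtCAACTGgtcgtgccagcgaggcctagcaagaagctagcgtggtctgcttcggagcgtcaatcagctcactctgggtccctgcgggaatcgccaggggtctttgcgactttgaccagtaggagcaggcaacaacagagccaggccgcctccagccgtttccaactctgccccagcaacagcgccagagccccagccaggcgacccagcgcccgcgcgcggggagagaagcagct
Rbfox1 (chr16:7069585-7069884, plus strand): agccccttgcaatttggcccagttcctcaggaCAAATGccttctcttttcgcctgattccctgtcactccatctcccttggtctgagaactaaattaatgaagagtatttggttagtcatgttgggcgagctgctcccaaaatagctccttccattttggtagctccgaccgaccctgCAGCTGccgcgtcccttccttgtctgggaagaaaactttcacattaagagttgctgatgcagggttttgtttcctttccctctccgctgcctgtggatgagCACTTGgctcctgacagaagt
Mbnl3 (chrX:51205941-51206240, minus strand): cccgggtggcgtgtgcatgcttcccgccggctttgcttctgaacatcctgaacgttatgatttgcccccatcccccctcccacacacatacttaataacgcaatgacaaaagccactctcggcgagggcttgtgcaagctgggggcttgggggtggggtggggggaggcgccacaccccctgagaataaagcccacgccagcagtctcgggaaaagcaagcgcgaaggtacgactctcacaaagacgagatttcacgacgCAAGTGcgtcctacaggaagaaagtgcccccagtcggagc
Ptbp1 (chr10:79854182-79854481, plus strand): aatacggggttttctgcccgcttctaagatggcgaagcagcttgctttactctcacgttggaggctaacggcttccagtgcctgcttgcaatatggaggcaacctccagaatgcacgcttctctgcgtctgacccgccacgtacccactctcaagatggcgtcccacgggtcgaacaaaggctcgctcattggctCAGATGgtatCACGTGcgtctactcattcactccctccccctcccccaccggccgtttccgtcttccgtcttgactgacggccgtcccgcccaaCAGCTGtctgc

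Among all 32851 RefSeq windows of 300 bases, 72.3% held CANNTG. Its special cases are CAGCTG, favoured by MyoD and myogenin, in 16.3% of windows, and CACGTG, favoured by CLOCK and BMAL1, in 7.15%. The window of Ptbp1 held 1 CACGTG and 1 CAGCTG, the second window of Rbfox1 held 1 CAGCTG and its first none, and those of Rbm24 and Mbnl3 held neither. Of the windows of the other genes, 1 of Mbnl1 held 2 copies of CACGTG. No CANNTG was held by the windows of Celf1 and Mbnl2 or by the first of Rbfox1. The same was true of the Mbnl1 window at chr3:60500929-60501228 and the Celf2 window at chr2:6871986-6872285. Each of the remaining windows held CANNTG. A match describes the letters of these windows, and binding was not measured.

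In the Cry1 knockdown against the control, Rbfox1 was the 1 regulator of the 10 that passed. The edgeR fit over the 3 days called 2.67% of all genes tested, 0.932% higher and 1.73% lower. Rbfox1 had 115 counts in the Cry1 knockdown and 41 in the control at day 3, a ratio of 2.78 after scaling (95% counting interval 1.93 to 4.07), and 172 and 88 counts at day 5, a ratio of 1.86 (1.43 to 2.44). At day 0 there were 4 counts in the Cry1 knockdown and 0 in the control, and no fold was taken. The log2 fold change over days was 1.21 ± 0.25 (edgeR adjusted p = 0.0418, n = 3 libraries each). The call was kept without the Cry2 knockdown library of day 0, and was lost when any of the other 8 libraries was left out (adjusted p up to 0.231, log2 fold change 1.01 to 1.503). With the 6 libraries compared alone the adjusted p was 0.0789. Markers differed as well, the muscle set more at day 3 than at day 5. The 10 muscle markers summed to 20872 CPM in the Cry1 knockdown and 15576 CPM in the control at day 3, and to 22001 and 21094 CPM at day 5. Ckm, the muscle creatine kinase among them, had 410 and 217 CPM at day 3 and 351 and 255 CPM at day 5. The other markers of the set are not given singly for these days. In the Cry2 knockdown the 10 summed to 18242 and 23031 CPM at days 3 and 5, above the control. Its Rbfox1 ratios to the control were 1.04 and 0.963 at those days. The 5 fibroblast markers, of which 2 were at 0 in each of these libraries, summed to 30.6 CPM in the Cry1 knockdown and 82.0 CPM in the control at day 3, and to 67.4 and 153.7 CPM at day 5. The part of these differences in the level of Rbfox1 was not tested.

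**Figure D3:**
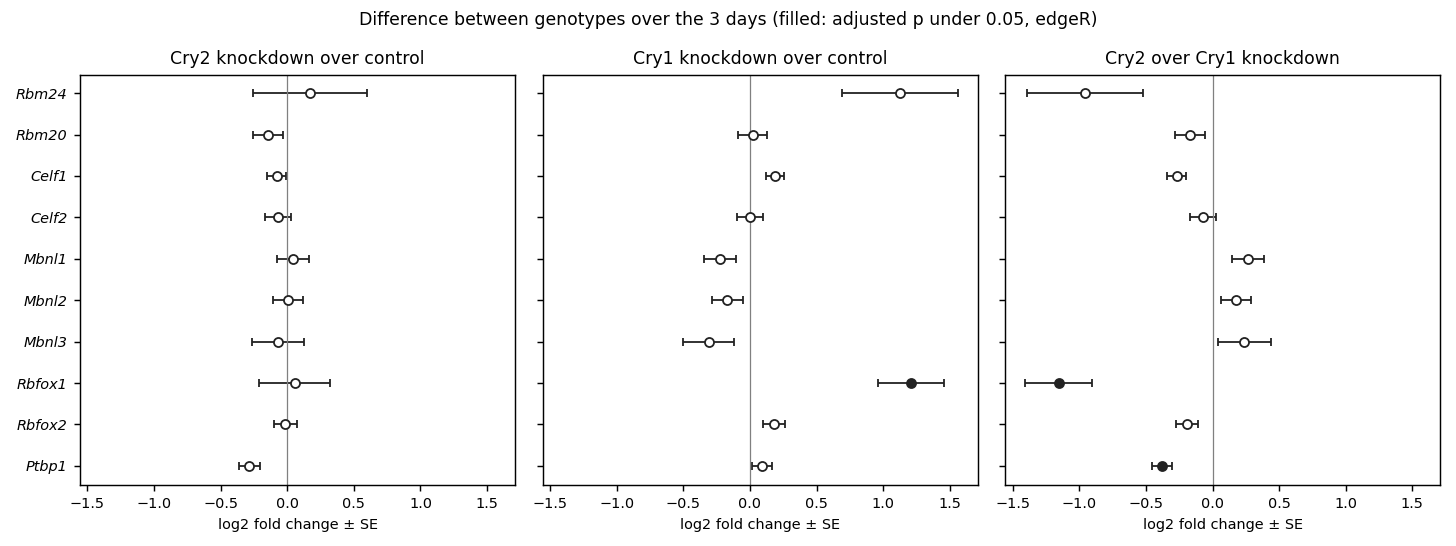
Log2 fold change with its standard error for each regulator over the 3 days, for Cry2 knockdown over control, Cry1 knockdown over control and Cry2 knockdown over Cry1 knockdown, on one axis, filled where the edgeR adjusted p was under 0.05. Rbfox1 is filled for Cry1 knockdown over control and for Cry2 over Cry1 knockdown, Ptbp1 for Cry2 over Cry1 knockdown, and no gene for Cry2 knockdown over control.

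Rbm24 was higher in the Cry1 knockdown than in the control at each of the 3 days, and most so before differentiation. At day 0 it had 257 counts in the Cry1 knockdown and 40 in the control, a ratio of 6.49 (95% counting interval 4.64 to 9.31). The ratio was 1.58 (1.44 to 1.75) at day 3 and 1.42 (1.30 to 1.54) at day 5. The fold over days, 1.13 ± 0.43 on the log2 scale, did not pass (edgeR adjusted p = 0.205). It was 0.52 without the Cry1 knockdown library of day 0, and without the filter on low counts it passed (adjusted p = 0.00746). Some muscle markers were higher too in the Cry1 knockdown library of day 0. Myog had 180 CPM in Cry1 knockdown cells and 58.7 CPM in the control, Acta1 364 and 117 CPM, Mymk 72.8 and 33.6 CPM, and Myh3 184 and 70.2 CPM, whereas Des had 1634 and 1637 CPM. All 10 muscle markers together had 2838 CPM in Cry1 knockdown cells and 2150 CPM in control cells. The part of this difference in the level of Rbm24 was not tested.

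**Figure D4:**
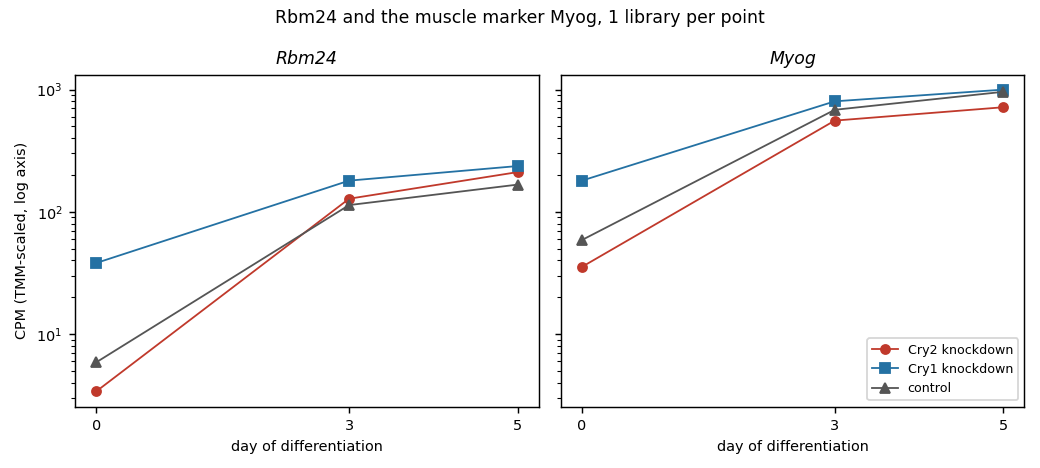
Level of Rbm24 (left) and of the muscle marker Myog (right) in CPM on a log axis against day, with 1 point per library and a line for each of Cry2 knockdown, Cry1 knockdown and control. At day 0 the Cry1 knockdown is above the other libraries for both genes (38.1 CPM of Rbm24, 180 CPM of Myog), and by day 5 the 3 lines lie close together.

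The other regulators differed less between the Cry1 knockdown and the control. Celf1 was higher at each day, by 0.19 ± 0.07 over days on the log2 scale, with an edgeR adjusted p of 0.192. Rbfox2 was at 0.18 ± 0.08, Ptbp1 at 0.09 ± 0.07, Rbm20 at 0.02 ± 0.11 and Celf2 at 0.00025 ± 0.10. Mbnl1, Mbnl2 and Mbnl3 had values of -0.22 ± 0.12, -0.17 ± 0.12 and -0.31 ± 0.19. None of these passed, with edgeR adjusted p of 0.192 to 1.

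In the Cry2 knockdown against the control, 0 of the 10 regulators passed in edgeR, where 0.084% of all genes tested did (0.0458% higher and 0.0382% lower), and DESeq2 also called 0 of the 10. At an unadjusted p of 0.05 there was 1 of the 10, Ptbp1, against 1604 of the 13094 genes tested. Ptbp1 was lower in the Cry2 knockdown at every day, with ratios of 0.848 (95% counting interval 0.795 to 0.905) at day 0, 0.809 (0.719 to 0.909) at day 3 and 0.804 (0.711 to 0.908) at day 5. The log2 fold change over days was -0.28 ± 0.08 (edgeR adjusted p = 0.195). Rbm24 had 21 counts in the Cry2 knockdown and 40 in the control at day 0, a ratio of 0.578 (0.324 to 1.00), and was above the control at day 3 (1.13, 1.01 to 1.26) and day 5 (1.27, 1.16 to 1.38). The Rbfox1 ratios were 1.04 (0.643 to 1.69) at day 3 and 0.963 (0.705 to 1.31) at day 5. Mbnl1 was at 0.840 of the control (0.783 to 0.900) at day 0, 1.31 (1.21 to 1.41) at day 3 and 0.986 (0.921 to 1.06) at day 5. Rbm20 was at 0.732 of the control at day 3 (0.646 to 0.829) and at 0.954 (0.869 to 1.05) at day 5. These single-day ratios compare 2 libraries and have no replicate check.

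Between the knockdowns, 2 regulators passed, both lower in the Cry2 knockdown, where 7.93% of all genes tested passed, 3.69% lower and 4.24% higher. Rbfox1 was at 0.376 (95% counting interval 0.249 to 0.556) of the Cry1 knockdown at day 3 and 0.516 (0.393 to 0.675) at day 5, with a log2 fold change over days of -1.16 ± 0.25 (edgeR adjusted p = 0.0277). Beside this, the 10 muscle markers together were lower in Cry2 than in Cry1 knockdown cells at day 3 (18242 against 20872 CPM). At day 5 they were higher (23031 against 22001 CPM). Among them Ckm, the only marker given singly here, was lower at both days, unlike the sum at day 5. It had 220 against 410 CPM at day 3 and 260.0 against 351 CPM at day 5. In the same order, the 5 fibroblast markers summed to 57.6 against 30.6 CPM at day 3, and to 72.4 against 67.4 CPM at day 5. The part of the muscle and fibroblast markers in the Rbfox1 result was not tested. Ptbp1 was at 0.835 (0.783 to 0.891) at day 0, 0.772 (0.687 to 0.867) at day 3 and 0.702 (0.624 to 0.789) at day 5, with -0.38 ± 0.08 over days (edgeR adjusted p = 0.021). Both calls were lost when the day 3 or day 5 library of either knockdown was left out, with adjusted p up to 0.159 for Rbfox1 and 0.101 for Ptbp1. Celf1 was lower in the Cry2 knockdown at each day, by -0.27 ± 0.07 on the log2 scale (edgeR adjusted p = 0.0515), and passed without the control library of day 3 (adjusted p = 0.0455). Rbm24 had -0.96 ± 0.43 (adjusted p = 0.205), and passed without the filter on low counts (adjusted p = 0.0156).

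Whether the change from day 0 to days 3 and 5 itself differed between genotypes was tested with 2 residual degrees of freedom. Each genotype has 1 library at day 0, which this fit matches exactly. The p therefore holds no measure of spread at day 0. For the Cry2 knockdown against the control 0 of the 10 passed in edgeR, against 0.0367% of 13608 genes tested (0.00735% with a higher and 0.0294% with a lower log2 change in the Cry2 knockdown), and 0 of the 10 passed in DESeq2. At an unadjusted p of 0.05 there was 1 of the 10 (Rbm24, 1.05 ± 0.32, edgeR adjusted p = 0.797), against 818 of the 13608. For the Cry1 knockdown against the control 0 of the 10 passed in edgeR, where 0% of all genes tested did. At an unadjusted p of 0.05 there were 2 of the 10 (Rbm24 and Celf2), against 670 of the 13608, and DESeq2 called 1 (Rbm24). For Rbm24 the difference in change, Cry1 knockdown minus control, was -2.11 ± 0.24 on the log2 scale (edgeR adjusted p = 0.111). It passed in DESeq2 (adjusted p = 0.000639), without the filter on low counts (adjusted p = 9.33e-05) and without the control library of day 3 or of day 5 (adjusted p = 0.000889 and 0.00282). None of these settings checks the day 0 level of Rbm24, which was 38.1 CPM in the Cry1 knockdown and 5.87 CPM in the control, from 1 library each. Within genotypes the log2 change of Rbm24 for day 3 over day 0 was 5.17 in the Cry2 knockdown, 2.23 in the Cry1 knockdown and 4.23 in the control. The smaller change sat beside the higher start. No such fold is given for Rbfox1, since the control had 0 counts at day 0. Celf2 had -0.41 ± 0.16 in the Cry1 knockdown against the control (edgeR adjusted p = 0.976).

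The genes nearest to each regulator over the 9 libraries were found by Pearson correlation of log2(CPM + 1) among 10238 coding genes of at least 5 CPM on average. The libraries share days and genotypes, so these values describe shared patterns only. For Rbm24 they were Ppp1r13l (0.99), Myog (0.99) and Sema4d (0.99). For Rbfox1 they were Tcp11x2, Mafa and Klhdc3 (0.998, 0.998 and 0.994), and for Rbm20 Lama2, Macf1 and Il6st (0.99 each). For Ptbp1 they were Cit, Prpsap1 and Bora (0.995, 0.992 and 0.992), of which Cit and Bora act in mitosis. For Mbnl3 they were Pde3b, Aqp5 and Cep89 (0.99, 0.99 and 0.98). The regulators that varied less had lower values, such as 0.94 for Celf2 with Xpr1.

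Between day 0 and day 3 the lists of splicing factors other than the 10 regulators held falls and rises in unequal numbers. These lists, and that of muscle genes below, were chosen with earlier results of these data known. Their counts and medians beside all genes are therefore descriptive and no independent test. Of 12 SR proteins tested, 9 fell and 0 rose, with a median log2 fold change of -0.49. Srsf3 averaged 161 CPM at day 3 and 319 CPM at day 0 (-0.98 ± 0.09, edgeR adjusted p = 4e-05), and Srsf1, which promotes exon definition, 193 and 316 CPM (-0.71 ± 0.10, adjusted p = 0.000422). Of 23 hnRNP genes, 19 fell and 0 rose (median -0.48). Hnrnpa1, a splicing repressor that works against SR proteins, averaged 410 CPM at day 3 and 789 CPM at day 0 (-0.94 ± 0.08, edgeR adjusted p = 2.1e-05). Of 18 core splice-site factors, 14 fell and 0 rose (median -0.52), among them the branch-point binding Sf1 at -0.93 ± 0.07. Of 14 partners of the regulators, 8 fell, such as Khsrp and Raver1, a PTBP1 corepressor, and 2 rose, among them Dmpk (0.72 ± 0.08). In all genes tested, 25.7% fell and 25.4% rose.

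Other tissue-restricted splicing regulators split. Of 13 tested, 2 rose, Rbm38, an RNA-binding protein of differentiating myoblasts (1.78 ± 0.14), and Msi2 (0.84 ± 0.09), and 5 fell, among them Rbpms2 (-1.14 ± 0.10), the Ptbp1 paralog Ptbp3 (-0.68 ± 0.08) and Celf4 (-2.62 ± 0.31, from at most 13.9 CPM). Of 7 splicing kinases, Srpk3, the muscle SR-protein kinase under MEF2, rose to 37.0 CPM at day 3 against 1.04 CPM at day 0 (5.14 ± 0.36, edgeR adjusted p = 7e-06), and Srpk1 fell (-0.48 ± 0.07). Of 27 muscle genes with exons known to be under these regulators, 19 rose and 3 fell (median 1.403), among them Atp2a1 (4.47 ± 0.21), Tpm2 (2.94 ± 0.15) and Tnnt3 (5.14 ± 0.30).

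**Figure D5:**
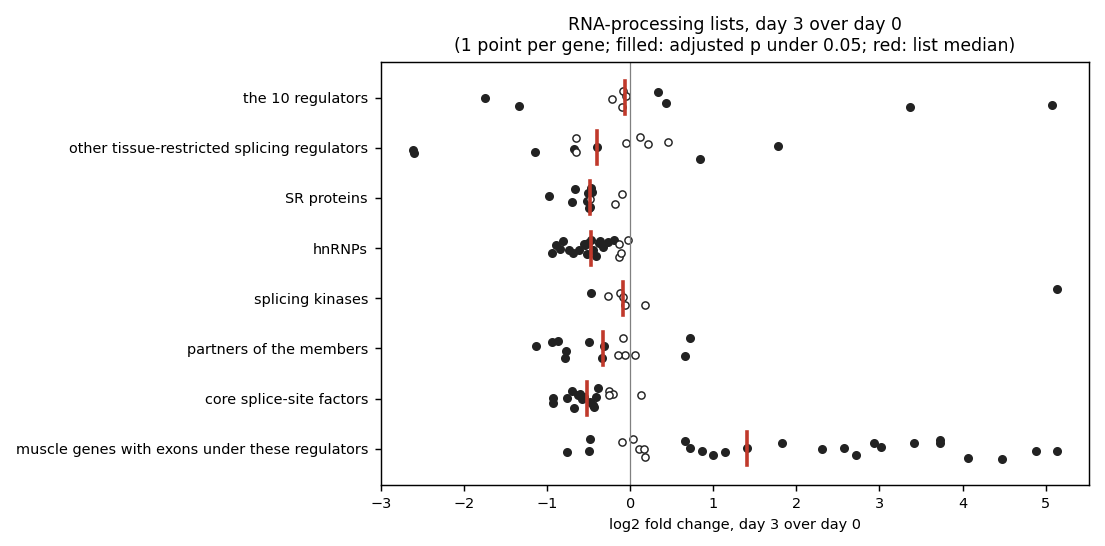
Log2 fold change of each gene for day 3 over day 0, for the 10 regulators and 7 other lists, filled where the edgeR adjusted p was under 0.05, with the list median as a red line. Mbnl1 is plotted under both the regulators and the muscle genes, and Fxr1 under both the partners and the muscle genes. SR proteins, hnRNPs and core splice-site factors lie mostly left of 0 (medians -0.49, -0.48 and -0.52), and the muscle genes with regulated exons mostly right of it (median 1.403).

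For day 5 over day 3, 27.9% of all genes tested passed, 14.7% higher and 13.2% lower. Of the 12 SR proteins 7 fell, and of the 18 core factors 7 fell. Of the SR proteins 1 rose, Srsf5 (0.53 ± 0.09), and of the core factors 2 rose, Snrnp200 (0.49 ± 0.11) and Sf1 (0.25 ± 0.07). Of the hnRNP genes 6 fell and 0 rose, Hnrnpa1 again (-0.55 ± 0.08). Rbm38 rose again (0.90 ± 0.12), and Qk, the quaking protein that acts on muscle exons, rose (0.53 ± 0.12). In the same list of 13, 2 fell, Khdrbs3 (-0.54 ± 0.16) and Rbpms2 (-0.39 ± 0.10). Of the 27 muscle genes 14 rose, among them Ryr1 by 1.62 ± 0.18 and Nrap by 1.58 ± 0.14, and 2 fell, Actn1 (-0.41 ± 0.07) and Capzb (-0.39 ± 0.08).

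Between genotypes these lists held few calls. For the Cry1 knockdown against the control they lay in the muscle gene list, where 5 of 27 were higher and 0 lower (median 0.30, against 0.01 for all genes). Mef2c averaged 334 CPM in Cry1 knockdown cells and 173 CPM in the control (1.23 ± 0.19, edgeR adjusted p = 0.0185). Dmd, the dystrophin gene, averaged 12.8 and 1.83 CPM (2.86 ± 0.46, edgeR adjusted p = 0.0196). Its level was uneven over libraries, with 14.7 ± 16.7 CPM at day 5 and 1.66 ± 2.46 CPM at day 3 over the 3 genotypes (SD). Pdlim3, Coro6 and Nrap were the others, and none of the splicing lists had a call. For the Cry2 knockdown against the Cry1 knockdown, 6 muscle genes were lower, Mef2c by -1.28 ± 0.20, together with Rbm38 (-0.57 ± 0.13), Srpk1 (-0.38 ± 0.08), Hnrnpa1 (-0.33 ± 0.08) and the core factors Sf3b3, Sf3a1 and U2af2. For the Cry2 knockdown against the control no list had a call in edgeR, with 3 of 13, 0 of 12, 3 of 23, 0 of 7, 2 of 14, 1 of 18 and 3 of 27 genes at an unadjusted p of 0.05 in the other tissue-restricted regulators, SR proteins, hnRNPs, kinases, partners, core factors and muscle genes. Of all 13094 genes tested 1604 were at that p.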

How the data were processed

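PolyA RNA of C2C12 cells was sequenced from 9 libraries, 1 for each of Cry2 knockdown, Cry1 knockdown and control at days 0, 3 and 5. The authors deposited raw counts per gene for each library, made with CASAVA 1.8, HISAT2 2.0.2 and featureCounts 1.4.6 of Subread on mm10, per the submitters' processing notes. The annotation and the strand setting are not given in the sources used here. Counts were scaled by TMM and tested with edgeR 4.0.16 (R 4.3.3, limma 3.58.1): filterByExpr, quasi-likelihood F tests and Benjamini-Hochberg adjustment over all genes, threshold 0.05. Genotypes and days were compared in 1 additive model of the 9 libraries (13094 genes, with 4 residual degrees of freedom). Differences in response used an interaction of genotype and stage (day 0, or days 3 and 5 together) plus a day 5 term common to all genotypes (13608 genes, 2 degrees of freedom). SE is the log2 fold change over the square root of F. Single-day ratios carry exact 95% counting intervals, which cover counting error only. Exon lengths and overlaps came from GENCODE on mm10, and symbols matched 47223 IDs. Alternatives were RLE scaling, no filter, a filter of 1 CPM in 3 libraries, DESeq2 1.42.0, the 6 libraries compared alone, each library left out, and a prior count of 5. The fits were also run on simulated counts, drawn independently around fitted means, which cannot check the spread between replicate cultures. All 10 members are named, and of each other list up to 6 genes of smallest p past the threshold per comparison. The members and lists were chosen with earlier results of these data known. An item withheld for evaluation is not reported here.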

Additional observations from a re-analysis of the deposited data

Results flagged for a closer look

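Mbnl2 was noted because both later days lay below day 0 in the Cry1 knockdown (141 and 196 CPM at days 3 and 5, 197 CPM at day 0) and above it in the control (204 and 204 CPM, and 185 CPM at day 0). In the Cry1 knockdown day 5 and day 0 were not apart beyond counting error (95% counting intervals 184 to 208 and 187 to 208 CPM). The difference in response, Cry1 knockdown against control, was -0.388 on the log2 scale with an SE of 0.221, and it did not pass the edgeR test (adjusted p = 0.976).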

How the results depend on the processing

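The log2 fold changes of the members kept their direction and their side of the threshold in 835 of the comparisons with an alternative setting, fell below it in 28, passed it newly in 15 and changed sign in 42, all of these small values that did not pass. All 90 single-day log2 ratios stayed within counting error with a prior count of 5. With no filter on low counts 2 members passed for the Cry1 knockdown against the control, where 919 of 23515 genes did. For its difference in response 1 member passed, where 72 of 23515 genes did. DESeq2 also put that count at 1, where 21 of 13608 genes passed. With the 6 libraries compared alone the count was 0 for the Cry1 knockdown against the control, where 203 of 12855 genes passed. It was 5 for day 5 against day 3, where 3612 of 12622 genes passed. With 1 library left out the counts ran from 0 to 1 for the Cry1 knockdown against the control and for its difference in response, from 0 to 3 for the Cry2 knockdown against the Cry1 knockdown and from 1 to 4 for day 5 against day 3. The cause was not tested.

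Sign changes outside the left-out fits were Mbnl2 in the Cry2 knockdown against the control (-0.012 with no filter), Celf2 in the Cry1 knockdown against the control (-0.00942 with no filter, -0.0021 with the 1 CPM filter, -0.0057 with the 6 libraries) and Celf1 in the Cry2 difference in response (-0.0041 with RLE, -0.0042 with DESeq2). With 1 library left out, the log2 fold change in the Cry2 knockdown against the control ran from -0.10 to 0.18 for Mbnl2, -0.22 to 0.10 for Mbnl3, -0.11 to 0.19 for Mbnl1, -0.094 to 0.037 for Rbfox2, -0.19 to 0.47 for Rbm24 and -0.067 to 0.34 for Rbfox1. In the Cry1 knockdown against the control it ran from -0.10 to 0.093 for Celf2 and -0.10 to 0.15 for Rbm20, and in the Cry2 knockdown against the Cry1 knockdown from -0.16 to 0.035 for Celf2. For day 3 against day 0 it ran from -0.15 to 0.055 for Celf2 and -0.25 to 0.0064 for Mbnl1, and for day 5 against day 3 from -0.0093 to 0.13 for Rbfox2 and -0.054 to 0.029 for Celf1. The Cry2 difference in response ran from -0.072 to 0.078 for Celf1 and -0.045 to 0.20 for Rbfox2, and the Cry1 difference from -0.14 to 0.013 for Celf1, -0.43 to 0.077 for Mbnl3, -0.19 to 0.13 for Mbnl1 and -0.017 to 0.23 for Rbfox2.

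Over all genes tested, the Cry2 knockdown against the control had 11 calls, against 316 with no filter, 6 with the 1 CPM filter, 90 in DESeq2, 5 with the 6 libraries and 0 to 17 with 1 library left out. The Cry1 knockdown against the control had 349, against 919 with no filter, 203 with the 6 libraries and 27 to 366 with 1 left out. The Cry2 knockdown against the Cry1 knockdown had 1038, against 660 in DESeq2 and 258 to 1137 with 1 left out, and day 5 against day 3 had 3653, against 2382 in DESeq2 and 2045 to 3739 with 1 left out. The difference in response had 5 calls for the Cry2 knockdown (48 with no filter, 11 in DESeq2, 5 to 160 with 1 left out) and 0 for the Cry1 knockdown (72 with no filter, 21 in DESeq2, 2 with the 6 libraries, 0 to 126 with 1 left out). Differences in response could not be fitted without a day 0 library. No paired analysis was possible because each genotype and day has 1 library, and day is already a term of the fit. Rbfox1 and Mbnl3 had 539 and 457 counts over the 9 libraries, which limits their single-day ratios most.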
